A study of Mus musculus with 9 samples.

Results

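The genes described here are the members of solute carrier family 25, the mitochondrial carriers, in NMuMG cells, a line of mouse mammary epithelial cells. They were found by symbol, as every gene named Slc25a followed by a number, which gave 47 genes of the 52459 symbols in the files. RNA was sequenced from 9 libraries, 3 in each of 3 conditions, to ask how overexpression of the long noncoding RNA EPR (*BC030870*) changes gene expression, and how much of that change depends on the small protein its open reading frame can give. Mock cells carried the empty vector. EPR cells carried the full transcript in a pBICEP vector, and EPRSTOPE cells carried the same transcript with a point mutation that puts a stop codon into the reading frame. In all 3 conditions the cells were stably transfected, selected with G418 and kept as pools of transfectants, in medium with 10% serum. Whether the 3 libraries of a condition came from separate pools is not given in the sources used here, so the p-values measure the spread between these libraries, and a pool and its condition cannot be told apart.

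Carriers of this family are small proteins, encoded in the nucleus, that sit in the inner mitochondrial membrane and are built from repeats of the same fold. Each passes a small set of solutes between the cytosol and the matrix: ADP and ATP, phosphate, di- and tricarboxylates, amino acids, cofactors or iron. Through the malate-aspartate shuttle and the export of citrate they join the metabolism of the cytosol to respiration, and in mammary epithelium citrate export also feeds lipid synthesis. A few members work elsewhere, one in the peroxisome and others in the outer mitochondrial membrane.

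Libraries held 5972457 to 11876435 estimated counts, and levels below are given per 1000000 counts of a library (CPM) and normalised with edgeR's TMM method. EPR RNA was at 0 to 0.163 CPM in mock libraries, 23.65 to 27.02 CPM in EPR libraries and 3.797 to 4.744 CPM in EPRSTOPE libraries, so the level of the transgene differed between the conditions as well as its coding sequence. Of 10 epithelial markers, 6 passed the filter on low values. All 6 were higher in EPR than in mock cells and 4 in EPRSTOPE cells. In EPR against EPRSTOPE cells 3 of them, *Epcam*, *Ocln* and *Krt19*, were higher and 0 lower. The sum over the 10 genes was 3692 to 4157 CPM in mock, 9493 to 10601 CPM in EPR and 10687 to 11023 CPM in EPRSTOPE libraries. Most of that sum came from *Krt8* (means of 2108, 5263 and 5977 CPM in mock, EPR and EPRSTOPE libraries) and *Krt18* (1526, 3746 and 4137 CPM). *Cdh1* was at 0.84 CPM on average in mock, 556 CPM in EPR and 403 CPM in EPRSTOPE cells, and *Cldn3*, *Cldn7* and *Esrp1* were close to 0 in all conditions. Of 7 mesenchymal markers 6 were tested, of which 5 were lower in EPR and 2 in EPRSTOPE cells. The sum over the 7 genes was 4064 to 4226 CPM in mock, 2223 to 2452 CPM in EPR and 3972 to 4309 CPM in EPRSTOPE libraries. *Vim*, the most abundant of them in mock cells, was at a log2 fold change of -0.58 in EPR and 0.25 in EPRSTOPE cells. No adipocyte or skeletal muscle marker passed the filter, and the summed levels of the fibroblast, immune and erythroid lists were below 4 CPM in every library, while the endothelial list, led by *Pecam1*, summed to between 11.2 and 17.2 CPM. The part of these shifts in the results on the carriers was not tested. In bulk RNA, fewer cells of a kind and less RNA per cell cannot be told apart.

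Of the 47 genes, 46 had at least 1 estimated count and 38 passed the filter of at least 1 CPM in at least 3 libraries. The adenine nucleotide carrier *Slc25a31* had no count. The other 8 that did not pass were *Slc25a2*, *Slc25a21*, *Slc25a34*, *Slc25a35*, *Slc25a41*, *Slc25a43*, *Slc25a48* and *Slc25a54*, which reached at most 1.77 CPM in any library. Together the 47 genes held 0.219 to 0.230% of the estimated counts in every library, with no separation of the conditions by this share. By TPM, which takes account of transcript length, 4 genes had a mean above 100 over the 9 libraries, 16 lay between 10 and 100, 14 between 1 and 10 and 13 below 1. The summed TPM of the 47 genes was 1530.5 to 1726.9 in mock, 1229.8 to 1424.7 in EPR and 1239.7 to 1618.7 in EPRSTOPE libraries. By that measure EPR lay below mock without overlap, and EPRSTOPE overlapped with both. The highest were the phosphate carrier *Slc25a3* at 339.5 TPM, the adenine nucleotide carriers *Slc25a5* at 314 TPM and *Slc25a4* at 168 TPM, and *Slc25a39*, which is linked to glutathione import, at 132 TPM. None of these 4 was called changed in any comparison.

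**Figure D1:**
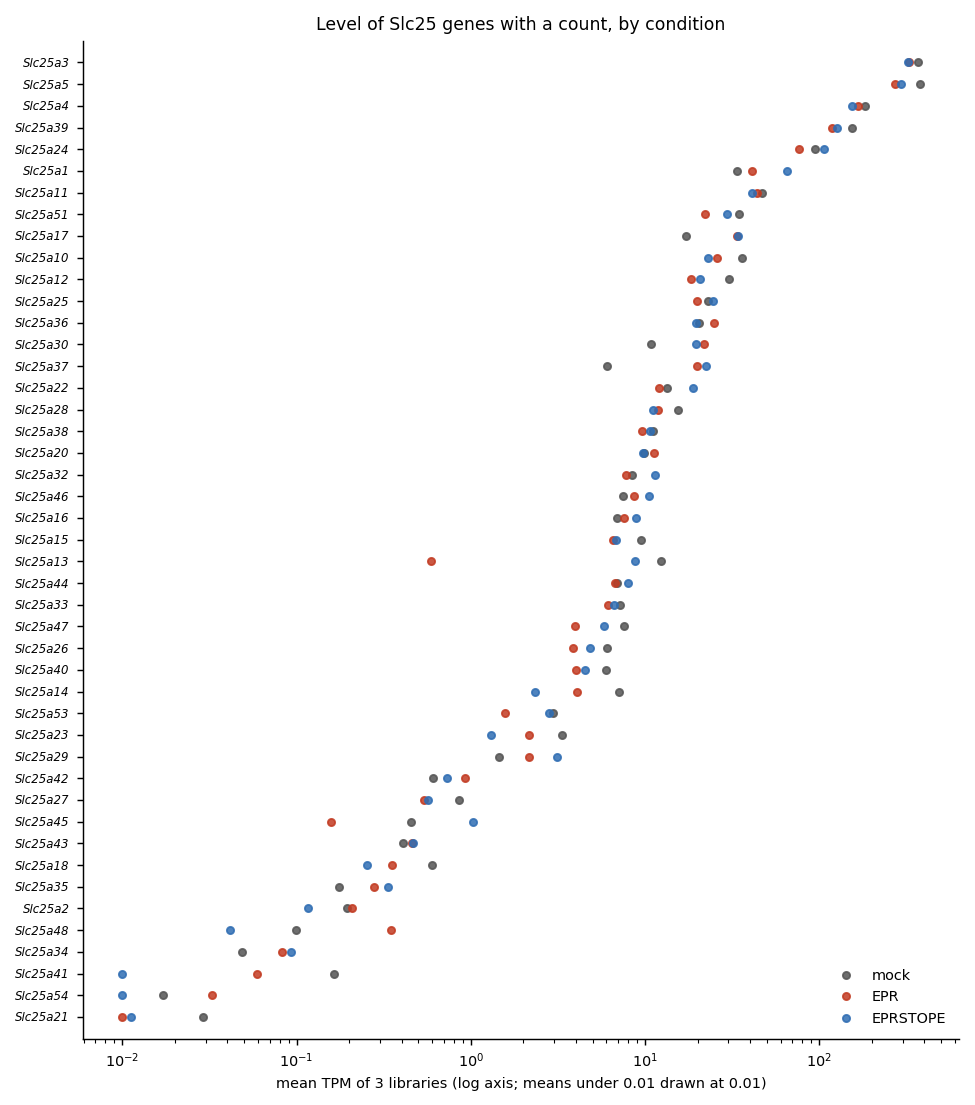
Mean TPM of 3 libraries on a log axis for 45 of the 46 genes with a count, ordered by the mean over all 9 libraries, with mock in grey, EPR in red and EPRSTOPE in blue. The red point of *Slc25a13* stands far to the left of its other points, and the grey point of *Slc25a37* to the left of its other points.

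Calls required a log2 fold change beyond 0.5 together with an adjusted p under 0.01 (quasi-likelihood test of edgeR, p-values adjusted by Benjamini-Hochberg over 15370 genes). In EPR against mock cells 5 of the 38 tested carriers were higher (13.2%, against 15.5% of all tested genes) and 3 lower (7.89%, against 13.1%). In EPRSTOPE against mock cells 6 were higher (15.8%, against 16%) and 3 lower (7.89%, against 12.9%). In EPR against EPRSTOPE cells 1 was higher (2.63%, against 7.39%) and 3 lower (7.89%, against 6.63%). The shares of the family lay near or below those of all tested genes, and its median log2 fold change was 0.04, 0.09 and -0.04 in the 3 comparisons, beside -0.01, -0.04 and 0.01 over all tested genes. Both comparisons with mock use the same 3 mock libraries. In all, 13 carriers were called in at least 1 comparison and 25 of those tested in none. The share of all tested genes called in at least 1 comparison, or in both comparisons with mock, was not taken. Such counts of carriers are therefore given without a background and show no excess or lack.

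**Figure D2:**
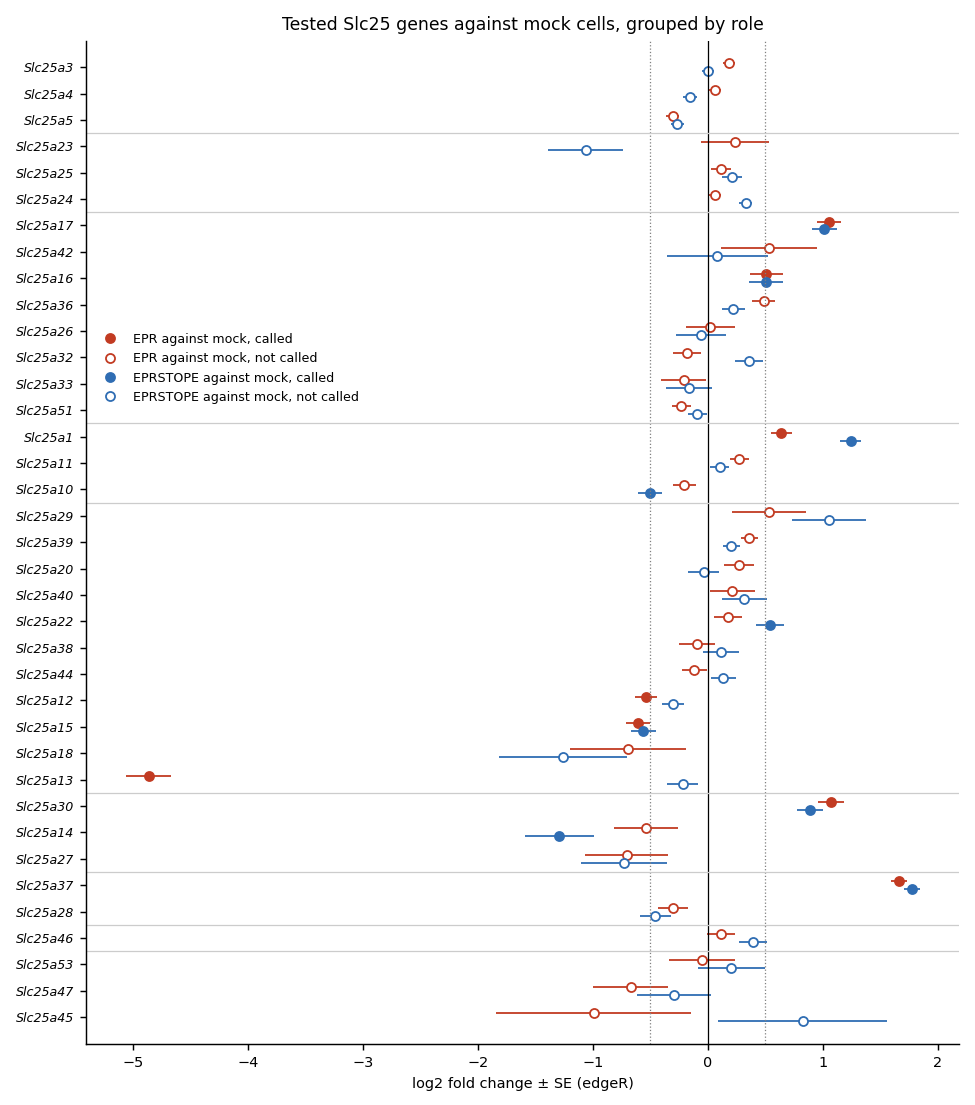
Log2 fold change ± SE of 37 of the 38 tested carriers in EPR cells (red) and EPRSTOPE cells (blue) against mock, grouped by role with grey lines between groups. Filled points were called, open points were not, and dotted lines mark a log2 fold change of 0.5 in each direction. *Slc25a13* is the only gene whose red point lies below -2.

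The promoters of 4 genes on which the results turn are shown first, as the 250 bases upstream of the annotated start in RefSeq on GRCm38.p6, 5′ to 3′ on the strand of the gene. *Slc25a13* is shown because it fell in EPR cells and was lower there than in EPRSTOPE cells, *Slc25a1* because its level differed between all 3 conditions, and *Slc25a17* and *Slc25a30* because they rose in both overexpressing conditions. Capitals mark matches, on either strand, to 6 short motifs that were searched. These are the GC box GGGCGG, the CCAAT box, the NRF1 half-site TGCGCA, the E box CACGTG, the cAMP response half-site TGACGT and the ERR element TCAAGGTCA.

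*Slc25a13* (chr6:6217174-6217423, minus strand): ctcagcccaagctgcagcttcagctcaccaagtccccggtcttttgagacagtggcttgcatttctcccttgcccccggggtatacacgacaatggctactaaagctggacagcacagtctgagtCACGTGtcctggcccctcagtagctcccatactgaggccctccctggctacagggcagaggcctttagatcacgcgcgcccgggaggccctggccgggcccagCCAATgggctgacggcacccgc
*Slc25a1* (chr16:17928220-17928469, minus strand): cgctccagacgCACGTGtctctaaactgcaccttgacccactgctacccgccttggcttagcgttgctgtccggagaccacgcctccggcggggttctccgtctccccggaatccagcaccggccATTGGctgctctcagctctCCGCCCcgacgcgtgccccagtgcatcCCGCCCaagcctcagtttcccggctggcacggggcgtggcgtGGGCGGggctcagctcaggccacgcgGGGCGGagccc
*Slc25a17* (chr15:81360766-81361015, minus strand): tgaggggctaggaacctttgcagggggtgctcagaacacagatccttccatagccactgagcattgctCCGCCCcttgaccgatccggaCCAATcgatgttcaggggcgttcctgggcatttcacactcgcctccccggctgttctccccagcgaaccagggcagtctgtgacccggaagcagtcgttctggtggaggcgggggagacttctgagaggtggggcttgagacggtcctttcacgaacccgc
*Slc25a30* (chr14:75787038-75787287, minus strand): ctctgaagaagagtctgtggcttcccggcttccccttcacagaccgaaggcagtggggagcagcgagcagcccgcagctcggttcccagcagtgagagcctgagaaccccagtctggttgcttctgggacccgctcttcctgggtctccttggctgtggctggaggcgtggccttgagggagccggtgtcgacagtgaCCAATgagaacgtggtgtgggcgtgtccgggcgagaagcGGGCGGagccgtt

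The window of *Slc25a13* holds 1 CCAAT box and 1 E box and no GC box. The window of *Slc25a1* holds 4 GC boxes, 1 CCAAT box and 1 E box, and those of *Slc25a17* and *Slc25a30* hold 1 GC box and 1 CCAAT box each. The RefSeq table had 46 windows for 36 of the 47 symbols, *Slc25a37* not among them. A GC box was in 69.6% of the carrier windows and in 32.7% of all 32851 windows, an E box in 17.4% and 6.02%, and a CCAAT box in 45.7% and 33.8%. The NRF1 half-site was in 8.70% and 6.43%, the cAMP response half-site in 8.70% and 6.47%, and the ERR element in 0% and 0.387%. The median GC content was 57.4% in carrier windows and 52.4% in all. No motif holds another within its letters, but matches to different motifs can share bases, as CACGTG and TGACGT can. Some genes have more than 1 window and these can overlap, so that the same E box of *Slc25a14* was counted more than once. A match describes these windows only, and binding was not measured here.

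Among the adenine nucleotide and phosphate carriers, the most abundant of the family, no gene was called. *Slc25a3* (ENSMUSG00000061904.12, chr10:91116574-91124059, minus strand of GRCm38, the build of all positions here) brings phosphate into the matrix for ATP synthesis. It was at 355, 379 and 376 CPM in the 3 mock libraries, 422, 434 and 406 CPM in EPR and 373, 377 and 359 CPM in EPRSTOPE libraries. All EPR values were above the others, but the log2 fold change against mock was 0.18 (SE 0.05, adjusted p = 0.00523 by edgeR), and EPRSTOPE overlapped with mock. By TPM, which is not scaled by TMM, the direction was the reverse. The means were 367.9 ± 18.7 in mock, 327.7 ± 32.5 in EPR and 322.9 ± 57.8 in EPRSTOPE libraries (± SD).

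*Slc25a4* (ENSMUSG00000031633.4, chr8:46206797-46211284, minus strand), the ADP/ATP exchanger typical of heart and muscle, was at 281, 328 and 317 CPM in mock, 319, 328 and 318 CPM in EPR and 281, 269.7 and 279.9 CPM in EPRSTOPE libraries. EPR and mock overlapped. EPRSTOPE lay barely below mock, with a highest value of 280.9 CPM against a lowest mock value of 281.0 CPM. The log2 fold change of EPRSTOPE against mock was -0.16 (adjusted p = 0.0317 by edgeR). *Slc25a5* (ENSMUSG00000016319.3, chrX:36795651-36798807, plus strand), the ADP/ATP exchanger of proliferating cells, was at 388, 432 and 437 CPM in mock, 332, 342 and 341 CPM in EPR and 356, 340.2 and 349 CPM in EPRSTOPE libraries. Every mock value was above every other value, and the log2 fold change was -0.31 in EPR (SE 0.05, adjusted p = 8.24e-05 by edgeR) and -0.27 in EPRSTOPE cells (SE 0.05, adjusted p = 3.89e-04 by edgeR), past the p threshold but not the fold. Of the 31-base words of its main transcript 67.1% also occur in transcripts of 13 other genes, so its counts are less certain than those of *Slc25a4*, which shares none.

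The ATP-magnesium/phosphate carriers, which comprise calcium-regulated and short forms, exchange adenine nucleotides for phosphate and so set the nucleotide pool of the matrix. Of 5, *Slc25a23*, *Slc25a24* and *Slc25a25* were tested and none was called against mock. *Slc25a24* was 236 ± 5.32 CPM in mock libraries, against 246 ± 5.18 CPM for EPR and 297 ± 13.5 CPM for EPRSTOPE (mean ± SD, 3 libraries each), and its EPRSTOPE against mock difference of 0.33 on the log2 scale passed the p threshold and not the fold. *Slc25a23* was called in the direct comparison only, where it was higher in EPR than in EPRSTOPE cells (4.27 ± 0.717 against 1.73 ± 0.127 CPM, log2 fold change 1.30, SE 0.32, adjusted p = 0.00384 by edgeR). At this low level the call was lost without any of EPR 206, EPR 207, EPRSTOPE 210 or EPRSTOPE 211, with log2 fold changes of 1.17 to 1.33 in those fits. Mock lay near EPR at 3.55 ± 1.07 CPM and above EPRSTOPE without overlap. With all transcripts and libraries EPRSTOPE against mock was at -1.06, just short of the p threshold (adjusted p = 0.0101 by edgeR). EPRSTOPE against mock was called with protein-coding transcripts only, at -1.81, and without mock 203, at -1.27.

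The carriers of cofactors and of other nucleotides were all tested, and 2 of 9 rose in both comparisons with mock. Of all tested genes 15.5% were called higher in EPR and 16% in EPRSTOPE against mock. *Slc25a17* (ENSMUSG00000022404.7, chr15:81318911-81360812, minus strand) is a peroxisomal member that carries coenzyme A, FAD and NAD. It was at 31.7, 30.6 and 26.2 CPM in mock, 60.4, 53.2 and 68.7 CPM in EPR and 65.1, 53.8 and 59.3 CPM in EPRSTOPE libraries. The overexpressing conditions overlapped with each other and lay well above mock, with log2 fold changes of 1.05 (SE 0.11, adjusted p = 6.11e-08 by edgeR) and 1.01 (SE 0.11, adjusted p = 1.14e-07 by edgeR), about 2.07-fold and 2.02-fold.

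*Slc25a16* (ENSMUSG00000071253.8, chr10:62920633-62946498, plus strand), a mitochondrial member linked to coenzyme A, was at 12.7, 11.5 and 16.4 CPM in mock, 17.9, 18.1 and 22.1 CPM in EPR and 19.99, 18.8 and 19.3 CPM in EPRSTOPE libraries. Mock was lower without overlap, though the highest mock value came within 2 CPM of the lowest EPR value. The log2 fold changes were 0.51 (adjusted p = 0.00616 by edgeR) and 0.50 (adjusted p = 0.00721 by edgeR), at the edge of the threshold. Both calls were lost without mock 203, where the log2 fold change was 0.46 in each, and without mock 204, where it was 0.39 in EPR and 0.38 in EPRSTOPE cells. The first was also lost without EPR 208, at 0.41, and the second without any 1 EPRSTOPE library, at 0.48 to 0.53. Both were lost with limma-voom, at 0.49 in each, and with protein-coding transcripts only, at 0.45 and 0.44.

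*Slc25a32* (ENSMUSG00000022299.8, chr15:39091231-39112716, minus strand), a folate and FAD carrier, was at 27.5, 28.1 and 33.3 CPM in mock, 29.1, 27.1 and 22.5 CPM in EPR and 39.8, 33.1 and 41.3 CPM in EPRSTOPE libraries. Mock overlapped with both, and EPR was below EPRSTOPE without overlap, with a log2 fold change of -0.53 in the direct comparison (SE 0.12, adjusted p = 0.00187 by edgeR). The call was lost without EPR 208, EPRSTOPE 209 or EPRSTOPE 211, where the log2 fold change was -0.42, -0.49 and -0.47, and with protein-coding transcripts only, at -0.49. Not called in any comparison were *Slc25a26* for S-adenosylmethionine, *Slc25a33* and *Slc25a36* for pyrimidine nucleotides, *Slc25a42* for coenzyme A and *Slc25a51* for NAD. Their log2 fold changes against mock ran from -0.23 for *Slc25a51* in EPR to 0.53 for *Slc25a42* in EPR cells, and *Slc25a36* in EPR cells passed the p threshold at 0.48, just below the fold.

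Of the di- and tricarboxylate carriers 3 of 4 were tested. *Slc25a1* (ENSMUSG00000003528.14, chr16:17925223-17928219, minus strand), the citrate carrier that exports citrate for fatty acid and sterol synthesis, was at 31.5, 28.8 and 30.2 CPM in mock, 50.7, 43.9 and 46.0 CPM in EPR and 70.8, 77.4 and 65.4 CPM in EPRSTOPE libraries. The 3 conditions did not overlap, with mock lowest and EPRSTOPE highest. It was 1.56-fold mock in EPR cells (log2 fold change 0.64, SE 0.09, adjusted p = 6.28e-06 by edgeR) and 2.36-fold mock in EPRSTOPE cells (log2 fold change 1.24, SE 0.09, adjusted p = 4.65e-10 by edgeR). The direct difference was also called, at -0.60 (SE 0.09, adjusted p = 2.14e-05 by edgeR), so that *Slc25a1* was the 1 carrier called in all 3 comparisons. When each count was rebuilt from TPM and the length of its transcript (length-scaled TPM), the call in EPR against mock was lost at 0.48 (adjusted p = 0.0264 by edgeR) and the direct call at -0.63 (adjusted p = 0.0143 by edgeR).

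*Slc25a10* (ENSMUSG00000025792.9, chr11:120491840-120499187, plus strand), which exchanges malate and succinate for phosphate and shares 9.93% of its main transcript's 31-base words with *Gm11788*, which overlaps it on the minus strand, was at 56.1, 59.5 and 52.0 CPM in mock, 49.9, 49.1 and 46.1 CPM in EPR and 32.4, 42.1 and 43.0 CPM in EPRSTOPE libraries. The order was the reverse of that of the citrate carrier, with no overlap between conditions. In EPRSTOPE against mock cells the log2 fold change was -0.50 (SE 0.10, adjusted p = 3.17e-04 by edgeR), at the fold threshold, and the call was lost without mock 204 at -0.46 and without EPRSTOPE 209 at -0.39. It also fell short of the fold with DESeq2 and limma-voom, at -0.49 in each. In EPR cells it was -0.21 (adjusted p = 0.0939 by edgeR). The oxoglutarate carrier *Slc25a11*, which works in the malate-aspartate shuttle, was not called, at 0.27 in EPR and 0.10 in EPRSTOPE against mock. The first passed the p threshold (adjusted p = 0.00865 by edgeR) and not the fold.

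The amino acid and carnitine carriers held the largest difference between EPR and EPRSTOPE cells. *Slc25a13* (ENSMUSG00000015112.15, chr6:6041218-6217173, minus strand) encodes citrin, which with its close relative aralar, the product of *Slc25a12*, exchanges mitochondrial aspartate for cytosolic glutamate in the malate-aspartate shuttle. It was at 29.0, 33.4 and 29.1 CPM in mock, 1.05, 1.39 and 0.748 CPM in EPR and 26.9, 22.2 and 29.7 CPM in EPRSTOPE libraries. EPR libraries were near 1 CPM, from 12, 11.2 and 8 estimated counts, while EPRSTOPE and mock libraries overlapped between 22.2 and 33.4 CPM. EPR was 29.1-fold below mock (log2 fold change -4.86, SE 0.20, adjusted p = 4.44e-14 by edgeR) and 25.0-fold below EPRSTOPE (-4.65, SE 0.20, adjusted p = 6.50e-13 by edgeR). The log2 fold change of EPRSTOPE against mock was -0.22 (SE 0.13, adjusted p = 0.196 by edgeR). All counts of the EPR libraries lay above the limit of 3 counts, which was 0.255 to 0.374 CPM there.

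Of 122 tested transcripts of the carriers 4 were called higher and 1 lower in EPR against mock (2.9% and 1.22% of all 45412 tested transcripts were), 6 and 0 in EPRSTOPE against mock (3.12% and 1.52%), and 0 and 1 in EPR against EPRSTOPE (0.478% and 0.421%). At an unadjusted p under 0.05 edgeR had 7 lower in EPRSTOPE against mock and 4 higher in EPR against EPRSTOPE. The 1 that was lower, in both comparisons of EPR cells, was the main protein-coding transcript of *Slc25a13*. This transcript, Slc25a13-201, had 121, 305 and 291 estimated counts in mock, 9.33, 9.29 and 7.76 in EPR and 157, 207 and 245 in EPRSTOPE libraries, with a log2 fold change of -4.75 in EPR against mock (adjusted p = 6.66e-05 by edgeR over transcripts) and -4.82 against EPRSTOPE (adjusted p = 0.000269 by edgeR). None of the 31-base words of this transcript is shared with another gene. The 16 tested genes within 2 Mb of it were at a median of -0.05 (log2 fold change) in EPR against mock and 0.01 in EPRSTOPE against mock, and 4 of the 16 were called lower and 2 higher in EPR against mock (13.1% and 15.5% of all tested genes were). The neighbours called are named here after their values were seen. *Peg10* and *Asb4* were lower in both overexpressing conditions. *Peg10* was at 4.38 ± 1.27 CPM in mock (SD, 3 libraries) and had no count in the others, and *Asb4* was at -3.74 in EPR and -3.71 in EPRSTOPE cells. The means of *Asb4* were 2.43 CPM in mock, 0.152 CPM in EPR and 0.169 CPM in EPRSTOPE libraries. *Pon3* was higher in both, at 4.37 and 4.08, from a mean of 0.265 CPM in mock. The sizes of these changes rest on few counts. *Gm44250* was called in EPR cells, at 1.09, but not in EPRSTOPE cells, at 0.77. As with *Slc25a13*, 2 neighbours were lower in EPR than in EPRSTOPE cells, where 6.63% of all tested genes were. *Pdk4*, a kinase that inhibits pyruvate dehydrogenase, was at -6.74 in EPR and -2.85 in EPRSTOPE cells, with a direct difference of -3.89 (adjusted p = 1.48e-05 by edgeR). Its means were 12.1 CPM in mock, 0.104 CPM in EPR and 1.68 CPM in EPRSTOPE libraries. The EPR level lay below the limit of 3 counts, so the size of its fall there is uncertain. *Asns*, asparagine synthetase, was at -0.61 in EPR and -0.05 in EPRSTOPE cells, with a direct difference of -0.56 (adjusted p = 9.53e-07 by edgeR). The nearest tested gene, *Sem1*, was at -0.17 in EPR and 0.10 in EPRSTOPE cells.

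**Figure D3:**
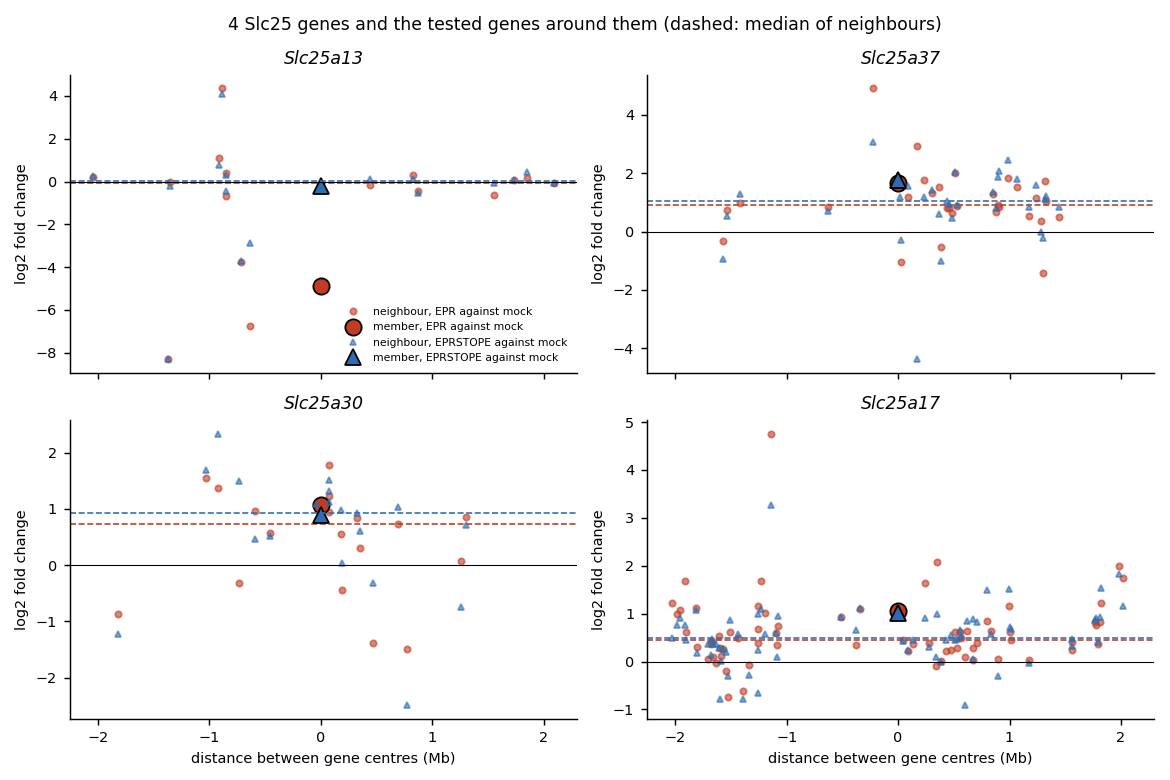
Log2 fold change of 4 carriers (large symbols with a black edge) and of the tested genes around them, against the distance between gene centres in Mb, for EPR (red circles) and EPRSTOPE (blue triangles) against mock. Dashed lines give the median of the neighbours, which is near 0 around *Slc25a13* and above 0 around *Slc25a37*, *Slc25a30* and *Slc25a17*.

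*Slc25a12* (ENSMUSG00000027010.16, chr2:71271063-71367749, minus strand), the other aspartate/glutamate carrier, was at 50.8, 47.3 and 48.4 CPM in mock, 33.1, 32.8 and 34.8 CPM in EPR and 34.9, 42.3 and 41.0 CPM in EPRSTOPE libraries. EPR was below mock and, by a narrow margin, below EPRSTOPE, without overlap. The log2 fold change was -0.54 in EPR (SE 0.09, adjusted p = 5.92e-05 by edgeR) and -0.30 in EPRSTOPE cells (SE 0.09, adjusted p = 0.0102 by edgeR). The direct difference was not called (-0.24, SE 0.09, adjusted p = 0.0645 by edgeR), so the fall in EPR cells was not shown to be particular to them. With protein-coding transcripts only, the values were -0.91 in EPR, -0.01 in EPRSTOPE and -0.90 in the direct comparison (adjusted p = 0.0159 by edgeR), still not called in the last. Of the gene's counts 61.9% to 73.3% by condition lay on Slc25a12-207, annotated for nonsense-mediated decay. With length-scaled TPM the call in EPR cells was lost, at -0.53 (adjusted p = 0.0274 by edgeR). Summed by TPM, which is not scaled by TMM, both aspartate/glutamate carriers came to 42.6 ± 3.73 in mock libraries, 18.97 ± 3.26 with EPR and 29.3 ± 3.54 with EPRSTOPE (mean ± SD, 3 libraries each). *Slc25a13* made up 28.9% of that sum in mock libraries, 3.03% with EPR and 29.8% with EPRSTOPE.

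*Slc25a15* (ENSMUSG00000031482.9, chr8:22375551-22398597, minus strand), the ornithine carrier of the urea cycle and of polyamine and proline metabolism, was at 41.2, 41.0 and 38.2 CPM in mock, 27.4, 28.2 and 23.4 CPM in EPR and 23.5, 28.8 and 28.5 CPM in EPRSTOPE libraries. Both overexpressing conditions lay below mock by a similar amount and overlapped with each other. The log2 fold changes were -0.61 (SE 0.11, adjusted p = 8.37e-05 by edgeR) and -0.56 (SE 0.11, adjusted p = 2.16e-04 by edgeR), the second of which passed the fold threshold only with EPRSTOPE 209 (-0.48 without it).

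*Slc25a22* (ENSMUSG00000019082.18, chr7:141429744-141437892, minus strand), a glutamate carrier, was at 19.7, 20.05 and 16.0 CPM in mock, 22.1, 21.2 and 19.3 CPM in EPR and 26.8, 27.7 and 26.2 CPM in EPRSTOPE libraries. EPRSTOPE was highest without overlap, while EPR overlapped with mock. It was called in EPRSTOPE against mock (log2 fold change 0.54, SE 0.12, adjusted p = 8.17e-04 by edgeR), but not without mock 205, at 0.43, nor with protein-coding transcripts only, at 0.83, or length-scaled TPM, at 0.66. The direct difference of -0.37 was not called (adjusted p = 0.0227 by edgeR).

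The other 7 tested genes of this group were not called in any comparison. Those are the second glutamate carrier *Slc25a18*, the carnitine/acylcarnitine carrier *Slc25a20*, the carrier of basic amino acids *Slc25a29*, the glycine carrier *Slc25a38*, the glutathione-linked *Slc25a39* and *Slc25a40*, and *Slc25a44*, which carries branched-chain amino acids. *Slc25a39* in EPR cells passed the p threshold at 0.36 but not the fold. By TPM its mean was instead lower in EPR, at 117.9 ± 18.8 against 153.5 ± 8.62 in mock (± SD). The widest values were those of genes near the filter, -1.26 for *Slc25a18* (SE 0.55, adjusted p = 0.0681 by edgeR) and 1.05 for *Slc25a29* (SE 0.32, adjusted p = 0.0103 by edgeR) in EPRSTOPE against mock. *Slc25a29* was just short of the p threshold, at 2.07 ± 0.804 CPM in mock and 4.42 ± 0.609 CPM in EPRSTOPE libraries, without overlap.

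**Figure D4:**
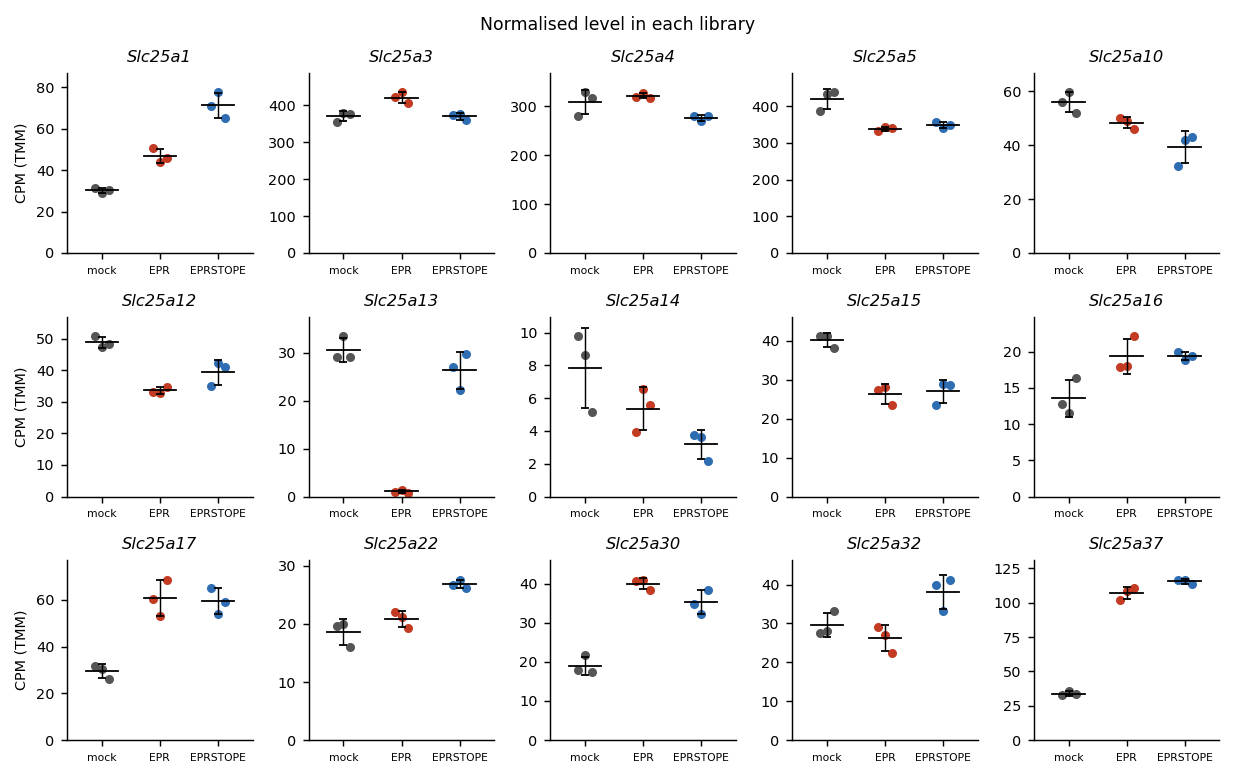
TMM-normalised CPM in each of the 9 libraries for the 15 carriers whose values are given in full, with mock in grey, EPR in red and EPRSTOPE in blue. Black lines give the mean and SD of 3 libraries. The EPR points of *Slc25a13* lie near 0, and the points of *Slc25a1* rise from mock to EPR to EPRSTOPE.

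The uncoupling-protein-like carriers are close in sequence to the proton-conducting uncoupling proteins, and their substrates are less settled. *Slc25a30* (ENSMUSG00000022003.6, chr14:75760117-75787037, minus strand) was at 17.9, 21.6 and 17.5 CPM in mock, 40.6, 41.0 and 38.3 CPM in EPR and 34.9, 32.4 and 38.4 CPM in EPRSTOPE libraries. Both overexpressing conditions were well above mock, at log2 fold changes of 1.07 (SE 0.11, adjusted p = 7.32e-08 by edgeR) and 0.89 (SE 0.11, adjusted p = 1.17e-06 by edgeR). Its relative *Slc25a14* (ENSMUSG00000031105.16, chrX:48623413-48662294, plus strand) was at 9.79, 8.65 and 5.13 CPM in mock, 3.93, 6.57 and 5.61 CPM in EPR and 3.73, 3.63 and 2.19 CPM in EPRSTOPE libraries. EPR overlapped with mock, and EPRSTOPE was below both. The log2 fold change of EPRSTOPE against mock was -1.29 (SE 0.30, adjusted p = 0.00118 by edgeR), and the call was lost without EPRSTOPE 211, at -1.07, with limma-voom, at -1.20, and with protein-coding transcripts only, at -0.86. *Slc25a27*, the third gene of the group, stayed below 4 CPM and was not called.

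The iron carriers, or mitoferrins, bring iron into mitochondria for heme and iron-sulfur clusters, and *Slc25a37* is known chiefly from developing red cells and *Slc25a28* from other tissues. *Slc25a37* (ENSMUSG00000034248.7, chr14:69241848-69285112, minus strand) had the largest increase of the family. It was at 32.5, 35.6 and 33.3 CPM in mock, 102, 108 and 111 CPM in EPR and 117, 117 and 113 CPM in EPRSTOPE libraries. Both overexpressing conditions were more than 3 times mock, 3.17-fold and 3.42-fold, with log2 fold changes of 1.66 (SE 0.07, adjusted p = 5.83e-14 by edgeR) and 1.77 (SE 0.07, adjusted p = 1.85e-14 by edgeR). *Slc25a28* was 23.3 ± 1.25 CPM in mock libraries, against 18.8 ± 1.52 CPM for EPR and 16.9 ± 2.81 CPM for EPRSTOPE (mean ± SD, 3 libraries each). It was not called, at -0.31 in EPR and -0.46 in EPRSTOPE cells. The second passed the p threshold (adjusted p = 0.00741 by edgeR) and not the fold. Of the summed TPM of both mitoferrins *Slc25a28* thus held 72.03% in mock, 37.25% in EPR and 32.97% with EPRSTOPE. Of the erythroid markers, *Hbb-bt* was at 0 in all libraries, and *Hba-a1* reached at most 0.230 CPM and *Alas2* 2.64 CPM.

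Most of the counts of *Slc25a37* were assigned to a transcript that keeps an intron. That transcript, Slc25a37-203, had 140, 230 and 340 estimated counts in mock, 907, 740 and 972 in EPR and 491, 855 and 790 in EPRSTOPE libraries, or 74.4%, 81.5% and 77.2% of the gene. It was called higher in both (log2 fold changes 1.89 and 1.87, adjusted p = 6.66e-05 and 5.54e-05 by edgeR over transcripts), as was Slc25a37-204, annotated for nonsense-mediated decay. The protein-coding transcript Slc25a37-201 had 27.3, 67.1 and 15.3 counts in mock, 29.8, 23.3 and 44.0 in EPR and 76.7, 78.1 and 64.3 in EPRSTOPE libraries. Its EPR and mock values overlapped, and with protein-coding transcripts only the gene was at -0.32 in EPR (adjusted p = 0.62 by edgeR) and 1.16 in EPRSTOPE cells (adjusted p = 0.063 by edgeR). Of the 31-base words of the coding transcript 99.3% are also in Slc25a37-203, so few reads can tell them apart, and a rise of the coding transcript was not shown.

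**Figure D5:**
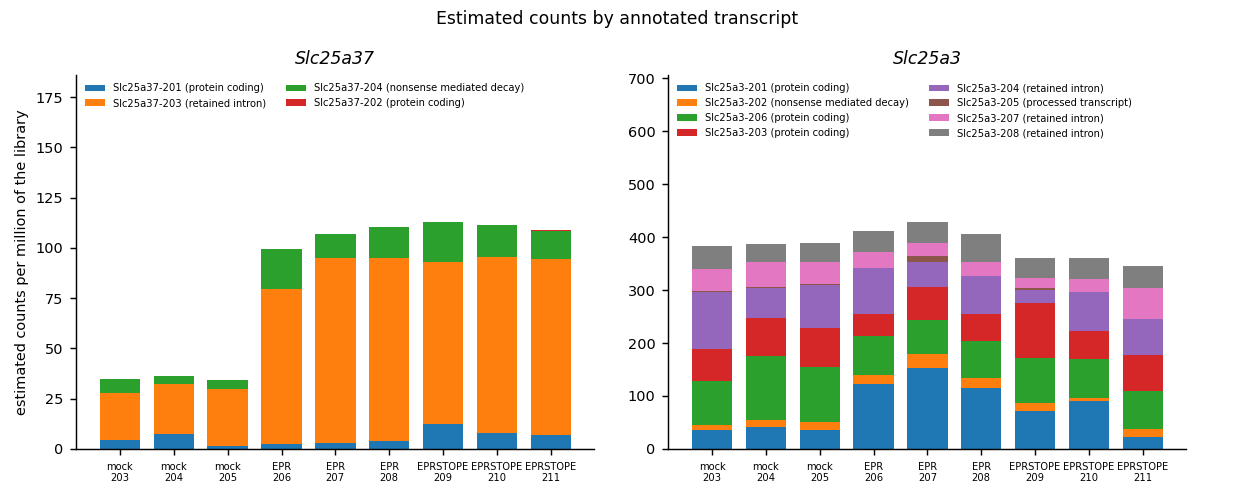
Estimated counts per 1000000 counts of the library, stacked by annotated transcript, for *Slc25a37* and *Slc25a3* in each of the 9 libraries. The orange part, Slc25a37-203 with a retained intron, makes up most of *Slc25a37* in all libraries, and the blue part, Slc25a3-201, is largest in the 3 EPR libraries.

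Of the 5 carriers that rose in both overexpressing conditions, *Slc25a37* and *Slc25a30* lie on chromosome 14 and *Slc25a17* on chromosome 15. Over all tested genes of chromosome 14 the median was 0.50 on the log2 scale in EPR and 0.65 in EPRSTOPE cells, and on chromosome 15 it was 0.49 and 0.52, while over the whole genome it was -0.01 and -0.04. Within 2 Mb of *Slc25a37* the median of 31 neighbours was 0.92 in EPR and 1.05 in EPRSTOPE cells, with 20 called higher in each (15.5% and 16% of all tested genes were). Not all of these neighbours are separate. *Gm20236* and *Gm37094* had the same means in each condition, and *Gm20236* lies within the span of *Slc25a37*. Around *Slc25a30* the median of 19 neighbours was 0.73 and 0.93, and around *Slc25a17* that of 69 neighbours was 0.46 and 0.50. *Slc25a37* and *Slc25a17* exceeded their neighbours' medians by 0.74 and 0.59 in EPR cells, whereas *Slc25a30* differed from its own by 0.34 in EPR and -0.04 in EPRSTOPE cells. *Slc25a32*, also on chromosome 15, was at -0.18 in EPR and 0.35 in EPRSTOPE cells. The median of its 12 neighbours was 0.28 and 0.38. Around *Slc25a1* on chromosome 16 the median was -0.09 and -0.19, and around *Slc25a16* it was -0.14 and -0.05. Chromosome 19, which holds *Slc25a28* and *Slc25a45*, had a median of -0.02 in EPR and -0.55 in EPRSTOPE cells. The part of these regional levels in the results was not tested.

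The remaining genes were not called in any comparison. *Slc25a46*, an outer membrane member that acts in mitochondrial fission, was 41.2 ± 4.28 CPM in mock libraries, against 44.6 ± 5.16 CPM for EPR and 54.2 ± 8.89 CPM for EPRSTOPE (mean ± SD, 3 libraries each). Of the 7 members with no settled substrate, *Slc25a45*, *Slc25a47* and *Slc25a53* were tested. They stayed below 6 CPM in every library, and the widest value was -1.82 for *Slc25a45* in EPR against EPRSTOPE (SE 0.81, adjusted p = 0.0965 by edgeR), from 1 to 12 counts in those 6 libraries and without overlap.

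Genes that work with the carriers were counted by the same threshold. Among 16 genes of the import route that inserts carriers into the inner membrane, 3 were lower in EPR and 1 in EPRSTOPE cells (13.1% and 12.9% of all tested genes were). None was called higher (15.5% and 16% of all tested genes were). *Tomm20* (0.24 and 0.40) and *Tomm22* (0.44 and 0.46) passed the p threshold in both conditions and not the fold. At an unadjusted p under 0.05 edgeR had 2 higher in EPR and 4 in EPRSTOPE cells. *Agk*, a subunit of the TIM22 insertase, was lower in both (-0.86 and -1.68), and the intermembrane chaperones *Timm9* and *Timm8a1* were lower in EPR cells (-0.61 and -0.76) and not called in EPRSTOPE cells (-0.17 and -0.22). *Tomm5*, of the outer membrane entry pore, was lower in EPR than in EPRSTOPE cells (-0.61). Against mock it passed the p threshold in EPR cells, at -0.45, and not the fold. Of 5 carrier relatives outside the symbol rule 3 were tested, and *Ucp2*, an uncoupling protein, was higher in both conditions (0.75 and 1.08), while *Mtch1* and *Mtch2* were not called.

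Among 7 enzymes of the malate-aspartate and citrate routes, the mitochondrial aspartate aminotransferase *Got2* was lower in EPR cells (-0.61, and -0.40 in EPRSTOPE cells, below the fold threshold). Malic enzyme *Me1* was higher in EPR cells (0.71), and the other 5, *Got1*, *Mdh1*, *Mdh2*, *Cs* and *Acly*, were not called. Among 5 other metabolite pores the pyruvate carrier subunit *Mpc1* (0.64 and 0.83) and the outer membrane channel *Vdac2* (1.10 and 1.58) were higher in both conditions, and *Mpc2*, *Vdac1* and *Vdac3* were not called. Of the 13 protein genes of mitochondrial DNA 7 were higher in EPR and 1 in EPRSTOPE cells (15.5% and 16% of all tested genes were) and none lower. The 6 not called in EPR cells included *mt-Atp6* (1.63, SE 0.40), *mt-Co3* (1.34, SE 0.48) and *mt-Atp8* (1.31, SE 0.35). In EPR against EPRSTOPE cells 1 of the 13 was called higher. Together the 13 genes held 0.634 to 0.704% of the counts in mock, 1.05 to 1.44% in EPR and 0.913 to 1.04% in EPRSTOPE libraries.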

How the data were processed

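Total RNA of 9 NMuMG libraries had been sequenced as 75-base read pairs from stranded libraries, per the labels. The authors quantified the reads with kallisto 0.43.1 (submitters' processing notes) on mouse transcripts and deposited, per transcript, estimated counts without normalization and TPM, scaled for effective length. Conditions came from the genotype labels and the library numbers 203 to 211 from the titles. Whether strand was used in quantification is not given in the sources used here, so antisense and overlapping genes may share reads.

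Estimated counts were summed per gene symbol and rounded. Genes that reached 1 CPM in 3 or more libraries were fitted with edgeR 4.0.16 (quasi-likelihood, robust, TMM, R 4.3.3) as 1 factor of 3 levels over all 9 libraries, with Benjamini-Hochberg adjustment. Transcripts were fitted likewise. Values in each library are given for carriers called in any comparison with a condition mean of at least 5 CPM and for the 3 of highest TPM. Comparison genes came from lists by role. Of the listed genes, 1 carrier and 2 comparison genes are not reported by name here. The members and lists were chosen with earlier results of these data known. Alternatives were DESeq2 1.42.0, limma 3.58.1 with voom, DESeq2 size factors, other filters, counts scaled from TPM, protein-coding transcripts, 2 conditions per fit and leaving out each library. Positions came from Gencode M21 on GRCm38 and promoter windows from RefSeq on GRCm38.p6. The depth gave a limit of 3 counts at 0.253 to 0.502 CPM. Python 3.11.15 was used, and the code was checked on counts with known changes.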

Additional observations from a re-analysis of the deposited data

Results flagged for a closer look

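In all, 4 carriers differed in their change against mock between EPR and EPRSTOPE cells, by the direct test of that difference in edgeR's fit (beyond 0.5 on the log2 scale, adjusted p under 0.01). The difference was -4.65 on the log2 scale for *Slc25a13*, -0.60 for *Slc25a1*, -0.53 for *Slc25a32* and 1.30 for *Slc25a23*. For *Slc25a13* and *Slc25a1* the call held without each library in turn, though that of *Slc25a1* was lost with length-scaled TPM (-0.63, adjusted p = 0.0143 by edgeR). For *Slc25a32* it was lost without EPR 208, EPRSTOPE 209 or EPRSTOPE 211, and for *Slc25a23* without EPR 206, EPR 207, EPRSTOPE 210 or EPRSTOPE 211.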

How the results depend on the processing

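No paired analysis was made, because each library has its own number, which does not show which libraries were prepared together. Of 6 counts of called carriers, those that moved by more than 1.5 times did so under 4 settings and on leaving out libraries, and the cause was not tested. With length-scaled TPM, 3 carriers were higher and 1 lower in EPR against mock, 1 lower in EPRSTOPE against mock, and 0 higher and 1 lower in EPR against EPRSTOPE, where edgeR on the summed counts gave 5, 3, 3, 1 and 3. With protein-coding transcripts only, 3 were higher in EPR and 3 in EPRSTOPE against mock, where all transcripts gave 5 and 6. With limma-voom 1 was lower in EPRSTOPE against mock and 0 higher in EPR against EPRSTOPE (7 at an unadjusted p under 0.05, and 1 with length-scaled TPM), and without a filter 2 were higher in the latter. Leaving out 1 library gave 1 to 4 lower in EPRSTOPE against mock (1 without EPRSTOPE 209) and 0 to 1 higher in EPR against EPRSTOPE (0 without EPR 206, EPR 207, EPRSTOPE 210 or EPRSTOPE 211, with 5 to 7 at an unadjusted p under 0.05). *Slc25a37* in EPR against mock reversed to -0.32 with protein-coding transcripts only. *Slc25a13* kept its calls in EPR cells under every setting that tested it, at -5.06 to -4.25 against mock, and a filter of 10 counts in every library left it out. *Slc25a1* and *Slc25a12* lost calls with length-scaled TPM as given above, and *Slc25a15* lost both calls with length-scaled TPM, at -0.33 in EPR and -0.30 in EPRSTOPE cells. In the counts per library, depth limits genes below about 5 CPM, such as *Slc25a23*.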

Other observations

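The phosphate carrier *Slc25a3* has several annotated transcripts, none of which was called. *Slc25a3-201*, the 1 with the lowest adjusted p in EPR against mock, had 212, 379 and 419 estimated counts in mock, 1451, 1227 and 1223 in EPR and 439, 889 and 211 in EPRSTOPE libraries. Every EPR value was above every other value, and the log2 fold change against mock was 1.94 (adjusted p = 0.0331 by edgeR over transcripts), short of the threshold. In EPRSTOPE against mock it was 0.89 (adjusted p = 0.31 by edgeR).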
